A study of Homo sapiens with 4 samples.

Results

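The 9 genes HLA-B, HLA-C, HLA-E, B2M, TAP1, TAP2, TAPBP, PSMB8 and PSMB9 carry out MHC class I antigen presentation, and their mRNA levels were followed in hFOB1.19 cells. They were taken by symbol from the deposited table of mRNA transcripts, in which all 9 are listed, out of 19610 gene symbols. Together they hold 25 transcripts, and each symbol stands for 1 gene ID. The values are FPKM, fragment counts scaled to transcript length and to the mapped fragments of the library, summed over the transcripts of a symbol. The hFOB1.19 line is a human fetal osteoblast line, immortalized with a temperature-sensitive SV40 large T antigen, which divides at a permissive temperature and differentiates at a higher one. Untreated cells before the shift in temperature (differentiation day 0, the control) were compared with cells undergoing mineralization at the higher temperature on differentiation days 3, 6 and 9. Every group carries the T antigen and comes from the same clonal line, and no further agent is named for any group. The files hold 4 libraries, 1 for each time point, and without replicates no difference between days could be tested or set against the spread between cultures. Days of differentiation and temperature cannot be told apart in the comparisons with day 0, whereas days 3, 6 and 9 share the same temperature.

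MHC class I molecules show peptides made inside a cell to CD8+ T cells, and the same molecules hold back natural killer cells. Proteasomes cut proteins into peptides, the TAP transporter carries the peptides into the endoplasmic reticulum, and a loading complex fits them into a heavy chain paired with beta-2 microglobulin. Nearly all nucleated cells use this pathway, osteoblasts included, and interferons are its best known inducers.

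A symbol was taken as expressed where at least 1 of the libraries reached 1 FPKM, which held for 12859 symbols and for all 9 genes. A log2 ratio was taken after 1 was added to each FPKM, and a gene was called higher or lower when it was at least 2-fold away from day 0. FPKM carry no read counts, so the depth behind each value is unknown and no interval could be given. The protocol names RNase R, which digests linear RNA, for the mRNA libraries and not for the circRNA libraries. Whether it was applied in that way cannot be told from the files, and its part in the mRNA FPKM was not tested. The osteoblast markers COL1A1, COL1A2, SPARC and RUNX2 were expressed in every library, with SPARC between 1113 and 1469 FPKM, while SP7, BGLAP and IBSP stayed under 1 FPKM in all 4. ALPL, the alkaline phosphatase of mineralizing osteoblasts, had 0.294 FPKM on day 0 and between 4.18 and 4.35 later. Leukocyte markers, 10 in all, summed to 2.73 FPKM on day 0 and to 5.09, 4.51 and 3.55 FPKM on days 3, 6 and 9. The 2 that reached 1 FPKM in any library were LAPTM5 and CD14. LAPTM5 had 0.441 FPKM on day 0 and 2.62, 1.74 and 1.76 later, and CD14 had 1.07 on day 0 and less later. PTPRC had 0.441 FPKM or less, and CD3E was listed at 0 in every library. The 5 epithelial markers summed to between 1.15 and 2.87 FPKM. The 5 endothelial markers summed to between 10.6 and 18.2 FPKM, nearly all of it from TEK, while PECAM1, CDH5 and VWF had at most 0.262 FPKM. The part of other cell types in the results was not tested.

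B2M, HLA-B, HLA-C and HLA-E were abundant at the start, ranked between 40th and 732nd of 12859 expressed symbols, while TAP2 was 4467th. Most of the 9 genes were lower afterwards, by less than 2-fold. Of the 9, none was at least 2-fold higher on day 3, 6 or 9, against 8.13%, 9.01% and 9.6% of all expressed symbols. At least 2-fold lower were 0 of 9 on days 3 and 6 and 1 of 9 on day 9, against 5.3%, 6.42% and 6.52% of all expressed symbols. The gene called lower on day 9 was TAP2. Below day 0 at any size were 8, 7 and 7 of the 9 on days 3, 6 and 9, where the shares of all expressed symbols were 55.1%, 54.8% and 55.1%. The 7 genes HLA-B, HLA-C, HLA-E, B2M, TAP2, PSMB8 and PSMB9 were below day 0 on all 3 later days, as were 46% of all expressed symbols, although PSMB9 lay above day 0 on days 3 and 9 once the libraries were rescaled to the same sum, as did TAP1 on day 3. These comparisons share the day 0 library. The median log2 ratio of the 9 on the 3 later days was -0.34, -0.57 and -0.52, against -0.08, -0.08 and -0.09 over all expressed symbols. Rescaled to the same sum it was -0.15, -0.39 and -0.40, and rescaled by the median of ratios it was -0.22, -0.44 and -0.39. Between days at the same temperature, 0 of 9 were past 2-fold from day 3 to day 6 or from day 6 to day 9, where 1.05% and 0.544% of all expressed symbols were. In bulk RNA, fewer cells of a type and less RNA per cell cannot be told apart.

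**Figure D1:**
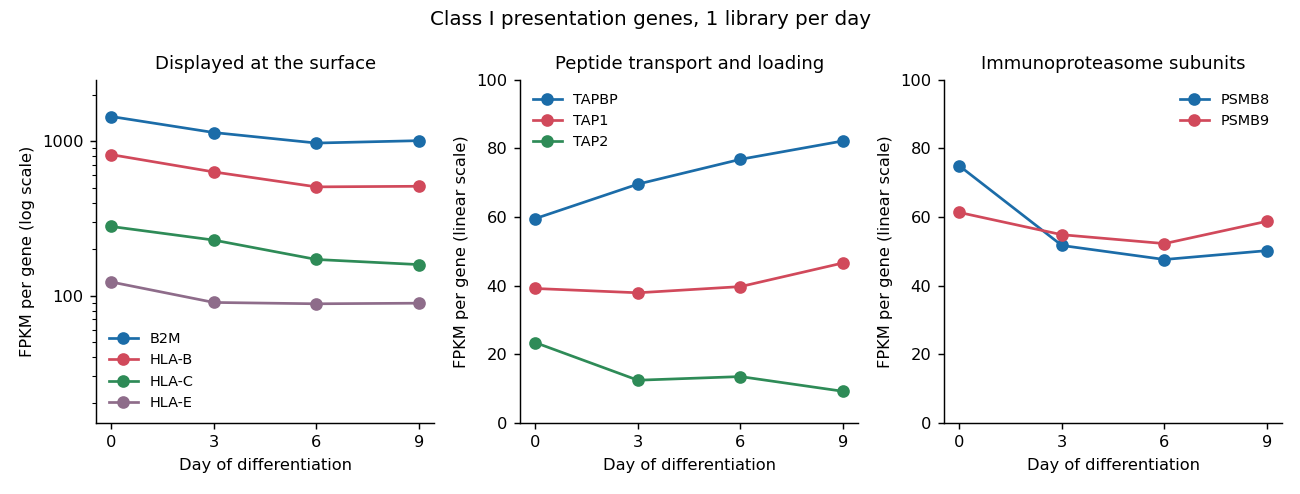
FPKM of the 9 class I presentation genes (y axis) against the day of differentiation (x axis), with 1 point for each of the 4 libraries. The left panel has a log scale and the other panels a linear scale from 0. The surface genes keep their order B2M, HLA-B, HLA-C, HLA-E in every library, TAPBP climbs from 59.5 to 82.2 FPKM, and PSMB8 and PSMB9 change places between day 0 and day 3.

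B2M encodes beta-2 microglobulin, the light chain that pairs with the class I heavy chain. It had 1444 FPKM on day 0 and 1137, 972 and 1008 on days 3, 6 and 9, and was the 40th most abundant gene per length on day 0 among 12859 and the 71st on day 9. All 3 later libraries were below day 0, at 78.8%, 67.3% and 69.8% of its level (log2 ratios -0.34, -0.57 and -0.52), within the 2-fold limit. HLA-B, a classical heavy chain that presents peptides to T cells, had 818 FPKM on day 0 and 632, 506 and 510 on days 3, 6 and 9. Its level was the highest of the heavy chains in all 4 libraries and was at 62.4% of day 0 on day 9 (log2 ratio -0.68). HLA-C, the classical heavy chain that is also a main ligand of killer cell inhibitory receptors, had 280 FPKM on day 0 and 229, 171 and 159 on days 3, 6 and 9. It was at 56.6% of day 0 on day 9 (log2 ratio -0.82), the lowest share among the surface genes. HLA-E, which shows leader peptides of other class I chains to natural killer cells, had 122 FPKM on day 0 and 90.3, 88.5 and 89.3 on days 3, 6 and 9. Its later libraries lay close together as deposited (log2 ratios -0.44, -0.46 and -0.45), and less so with the same sum in each library (-0.24, -0.29 and -0.34). HLA-B, HLA-C and B2M were lower on day 6 than on day 3, with log2 ratios from day 3 to day 6 of -0.32, -0.41 and -0.23 against -0.03 for HLA-E. With the same sum, the day 3 values of HLA-B, HLA-C and B2M were -0.17, -0.09 and -0.15 in place of -0.37, -0.29 and -0.34.

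B2M and the summed heavy chains HLA-B, HLA-C and HLA-E kept similar proportions, while single heavy chains differed more. On day 9, HLA-B, HLA-C and HLA-E were at 62.4%, 56.6% and 72.9% of day 0. Other heavy chains, such as HLA-F given below, are not in this comparison. HLA-B, HLA-C and HLA-E summed to 1221 FPKM on day 0 and to 951, 766 and 758 FPKM later. The ratio of B2M to this sum was 1.18, 1.20, 1.27 and 1.33 from day 0 to day 9. The ratio of HLA-B to HLA-C was 2.92, 2.76, 2.95 and 3.22, with no steady course before day 9. HLA genes are near-identical in long stretches and differ between people, so reads may have been split between them or lost where the alleles of the line differ from the reference, and this was not tested.

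**Figure D2:**
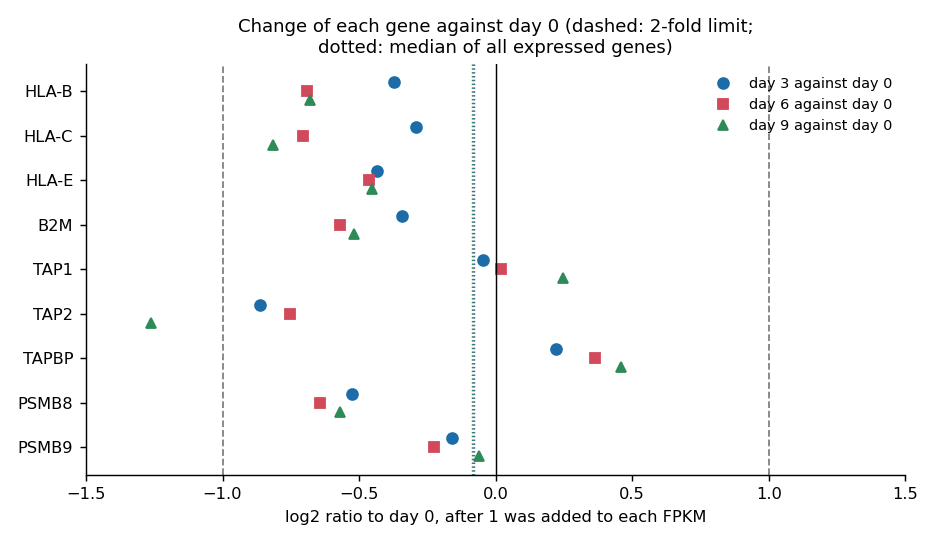
log2 ratio to day 0 (x axis) of each of the 9 genes (y axis) on day 3 (circles), day 6 (squares) and day 9 (triangles), from 1 library per day. Dashed lines mark the 2-fold limit and dotted lines the median of all expressed genes for each day. Only TAP2 on day 9, at -1.26, lies beyond a dashed line, and TAPBP is right of 0 on all 3 days. PSMB9 on days 3 and 9 and TAP1 on day 3 lie close to 0 and move to its right when libraries are rescaled to the same sum.

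The promoter windows of the genes, 250 bases before and 50 after the annotated start, were read from RefSeq (GRCh38.p14), in which 8 of the 9 symbols were matched and HLA-E was not. These windows are shown because class I genes are known to be switched on through NF-kB and interferon elements, and because the genes below did not all take the same direction. An NF-kB motif, GGGNNNTNCC on either strand, was found in the windows of 4 of the 8 genes (HLA-B, B2M, TAP1 and TAPBP), which is 4 of their 10 windows as TAP1 and PSMB8 have 2 each, and in 21.5% of all 35116 windows of this length. The aligned windows of HLA-B and HLA-C were identical at 90.9% of 296 aligned bases. HLA-C had no match, as the bases across from the HLA-B match differ by C9T, with positions counted from 1 at the 5′ end of the match and the HLA-B base given before the HLA-C base. In the lines that follow, each of 30 bases in the direction of the gene, capitals mark the match or, for HLA-C, the bases across from that of HLA-B. HLA-B lies at chr6:31357337-31357366 (minus strand), HLA-C at chr6:31272246-31272275 (minus strand), TAP1 at chr6:32853757-32853786 (minus strand), TAPBP at chr6:33314115-33314144 (minus strand) and B2M at chr15:44711382-44711411 (plus strand).
HLA-B: gcgcagcgttGGGGATTCCCcactcccctg
HLA-C: gcgccgcgttGGGGATTCTCcactcccctg
TAP1: gcctgttcctGGGACTTTCCgagagccccg
TAPBP: taaccagagcGGGGATTTCCaccgcccctc
B2M: actgaaaacgGGAAAGTCCCtctctctaac

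The interferon-stimulated response element, written GAAANNGAAA and read on either strand, was found in 5 of the 8 genes, namely B2M, TAP1, TAP2, TAPBP and PSMB8, in 5 of the 10 windows, and in 3.57% of all windows. In B2M, TAP1 and TAPBP a pair of overlapping matches was found, of which the upstream one is shown. Windows of HLA-B, HLA-C and PSMB9 held none, which says only that these letters are not in these windows. The match shown for PSMB8 lies in the second of its 2 windows, which belongs to the downstream start. The coordinates are chr15:44711363-44711392 for B2M (plus strand) and, on the minus strand, chr6:32853819-32853848 for TAP1, chr6:32838778-32838807 for TAP2, chr6:33314079-33314108 for TAPBP and chr6:32844032-32844061 for PSMB8. The genes that carry the match differ in direction on day 9, with TAPBP and TAP1 above day 0 and B2M, PSMB8 and TAP2 below it.
B2M: gagactctaaGAAAAGGAAActgaaaacgg
TAP1: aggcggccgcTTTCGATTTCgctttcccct
TAP2: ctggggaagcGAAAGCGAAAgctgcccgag
TAPBP: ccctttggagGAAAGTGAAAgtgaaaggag
PSMB8: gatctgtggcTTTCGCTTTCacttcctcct

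A STAT motif, TTCNNNGAA, was found in 2 of the 10 windows, the downstream ones of TAP1 and PSMB8, and in 7.66% of all windows. The Y box motif CCAAT, on either strand, was found in HLA-B, HLA-C, B2M, TAP1 and PSMB9, in 5 of the 10 windows, and in 34.6% of all windows. The windows of TAP1 and PSMB9, which are transcribed away from each other, overlap by 13 bases, and the CCAAT match of both is the same site in this overlap.

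TAP1 and TAP2 encode the paired chains of the peptide transporter, and their levels moved apart. TAP1 had 39.1 FPKM on day 0 and 37.9, 39.7 and 46.6 on days 3, 6 and 9. Its days 0, 3 and 6 lay close together and day 9 was the highest, at 119% of day 0 (log2 ratio 0.25). TAP2 had 23.4 FPKM on day 0 and 12.4, 13.5 and 9.18 on days 3, 6 and 9. All 3 later libraries were below day 0 (log2 ratios -0.86, -0.75 and -1.26), and it passed the 2-fold limit on day 9 at 39.3% of day 0. The ratio of TAP1 to TAP2 was 1.67, 3.05, 2.95 and 5.08 from day 0 to day 9. TAPBP encodes tapasin, the bridge between the transporter and the heavy chain, and had 59.5 FPKM on day 0 and 69.6, 76.8 and 82.2 on days 3, 6 and 9. Its level was higher in each later library than in the one before, within the 2-fold limit (log2 ratio 0.46 on day 9).

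The transcripts of TAP2 did not share one course. ENST00000374897 had 18.4 FPKM on day 0 and 8.62, 9.03 and 8.84 on days 3, 6 and 9, so that its whole difference was there on day 3 (log2 ratios -1.01, -0.95 and -0.98). ENST00000374899 had 4.97 FPKM on day 0 and 3.79, 4.44 and 0.334 on the later days. The day 9 library alone was low for the latter, whose share of the TAP2 FPKM was 21.2%, 30.5%, 33.0% and 3.64% from day 0 to day 9. With only the highest transcript of each symbol, TAP2 was past the 2-fold limit on day 3 and not on day 9. The estimate that divides reads between such transcripts carries no error in the file.

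**Figure D3:**
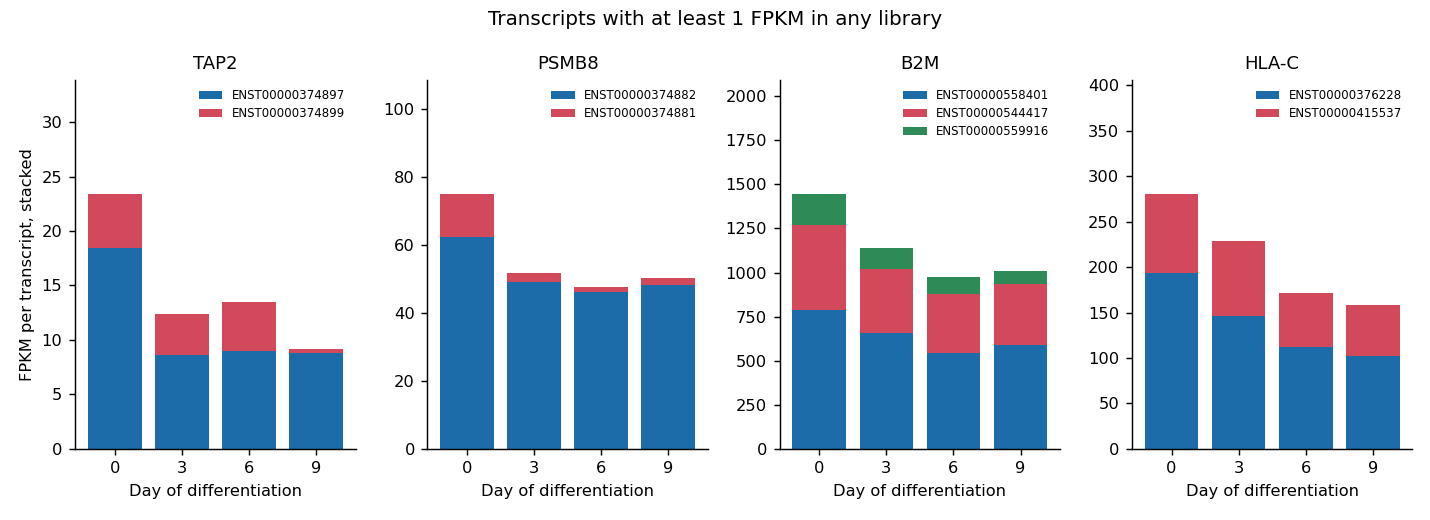
FPKM per transcript, stacked (y axis, linear from 0, a scale of its own in each panel), against the day of differentiation (x axis) for TAP2, PSMB8, B2M and HLA-C, from 1 library per day. Transcripts with at least 1 FPKM in any library are drawn. ENST00000374899 of TAP2 is nearly gone on day 9 only, and ENST00000374881 of PSMB8 is small on days 3, 6 and 9.

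PSMB8 and PSMB9 encode inducible catalytic subunits of the immunoproteasome, a form of the proteasome that favours peptides suited to class I. PSMB8 had 74.9 FPKM on day 0 and 51.7, 47.6 and 50.2 on days 3, 6 and 9. The later libraries lay close together and below day 0 (log2 ratios -0.53, -0.64 and -0.57). PSMB9 had 61.3 FPKM on day 0 and 54.8, 52.2 and 58.7 on days 3, 6 and 9, between 85.2% and 95.8% of day 0. Of the PSMB8 transcripts, ENST00000374881 had 12.7 FPKM on day 0 and 2.50, 1.42 and 2.03 later, with log2 ratios of -1.96, -2.50 and -2.17. The main transcript ENST00000374882 had 62.2 FPKM on day 0 and 49.2, 46.2 and 48.2 later, with log2 ratios of -0.33, -0.42 and -0.36. Among the 19 transcripts of the 9 genes that reached 1 FPKM in any library, 3 were at least 2-fold lower on day 9, and 0 were at least 2-fold higher, against 11% and 10.8% of all 37418 transcripts that reached it. These were ENST00000374881 of PSMB8, ENST00000374899 of TAP2 and ENST00000559916 of B2M, the last with 175 FPKM on day 0 and 119, 95.9 and 74.7 later.

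The standard proteasome was lower as well. Its 20S core is built of 14 kinds of subunit, and all 14 of their genes were below day 0 on all 3 later days, against 46% of all expressed symbols. At least 2-fold lower were 4, 4 and 1 of the 14 on days 3, 6 and 9, against 5.3%, 6.42% and 6.52% of all expressed symbols, so that day 9 was near the share of all. The median log2 ratio of the 14 was -0.87, -0.78 and -0.61 as deposited, and -0.68, -0.60 and -0.49 with the same sum in each library. The counts past the limit are as deposited and were not recomputed with rescaled libraries. PSMB2, a structural beta subunit, was the gene past the limit on all 3 days as deposited, with 77.6 FPKM on day 0 and 33.1, 31.7 and 36.3 later. On day 9 it lay close to the limit, at a log2 ratio of -1.08. PSMB6, which PSMB9 replaces in the immunoproteasome, had 171 FPKM on day 0 and 89.8, 80.8 and 91.5 later. The ratio of PSMB9 to PSMB6 was 0.359 on day 0 and 0.611, 0.646 and 0.642 on days 3, 6 and 9, so the later libraries lay together above day 0. PSMB5, which PSMB8 replaces, had 123 FPKM on day 0 and 70.6, 79.8 and 88.1 later. The ratio of PSMB8 to PSMB5 was 0.607, 0.732, 0.597 and 0.569 from day 0 to day 9, with day 3 as the highest. PSMB7, which the third inducible subunit PSMB10 replaces, had 203 FPKM on day 0 and 81.1, 91.4 and 104 later. PSMB10 itself had 16.6 FPKM on day 0 and 19.3, 19.0 and 16.8 later, and its ratio to PSMB7 was 0.0817 on day 0 and 0.238, 0.208 and 0.162 later.

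**Figure D4:**
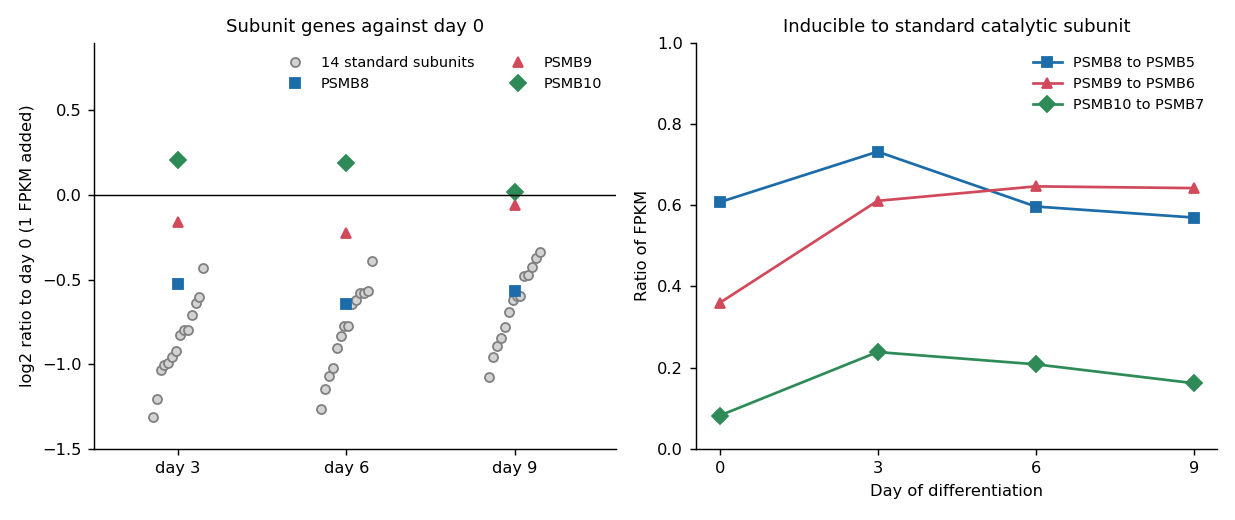
Left, log2 ratio to day 0 (y axis) of the 14 standard 20S subunit genes (grey circles, sorted within each day) and of PSMB8, PSMB9 and PSMB10 on days 3, 6 and 9 (x axis). Right, ratio of the FPKM of each inducible subunit to that of the standard subunit it replaces (y axis, from 0) against the day of differentiation, from 1 library per day. PSMB9 and PSMB10 lie above all 14 standard subunits on each day, and PSMB8 lies among them on all 3 days.

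Of 15 other genes of peptide supply, loading and display, 14 were expressed, and HLA-G was listed at 0 in every library. At least 2-fold higher on days 3, 6 and 9 were 0, 0 and 1 of the 14, against 8.13%, 9.01% and 9.6% of all expressed symbols. At least 2-fold lower were 1, 2 and 1, against 5.3%, 6.42% and 6.52%. Their median log2 ratio was -0.07, 0.03 and 0.05. HLA-F, a chain that can reach the surface without peptide, had 37.4 FPKM on day 0 and 22.9, 15.8 and 14.4 later, past the limit on days 6 and 9 (log2 ratios -0.68, -1.19 and -1.32). ERAP1 and ERAP2 trim peptides in the endoplasmic reticulum. ERAP2 had 9.19 FPKM on day 0 and 15.9, 17.4 and 19.5 later and was past the limit on day 9, at a log2 ratio of 1.01. ERAP1 had 25.1 FPKM on day 0 and 34.7, 43.0 and 45.8 later, with 0.84 on day 9. The activator subunits PSME1 and PSME2, which form the cap of the immunoproteasome together, differed in direction. PSME1 had log2 ratios of -0.09, -0.33 and -0.36, and PSME2 of 0.12, 0.30 and 0.47, all within the limit. PSME3, chosen after its values were seen, encodes a related nuclear cap and had 122 FPKM on day 0 and 59.7, 57.5 and 63.2 later, past the limit on days 3 and 6.

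Among 9 class I-like molecules, 8 were expressed. At least 2-fold higher was 1 of the 8 on each later day, near the 8.13%, 9.01% and 9.6% of all expressed symbols. At least 2-fold lower were 0, 0 and 2 on days 3, 6 and 9, against 5.3%, 6.42% and 6.52%. MR1, which presents microbial vitamin metabolites, was at least 2-fold higher on all 3 days, with 2.11 FPKM on day 0 and 8.20, 8.78 and 9.22 later. HFE, which controls iron uptake, and ULBP3, a ligand of the receptor NKG2D, were at least 2-fold lower on day 9, with 5.67 and 5.10 FPKM on day 0 and 1.39 and 1.28 on day 9, and were chosen after their values were seen. Of 10 genes of class II presentation, 4 reached 1 FPKM. These were HLA-DMA and, chosen after their values were seen, HLA-DPB1, HLA-DPA1 and CD74. HLA-DPB1 had 15.3 FPKM on day 0 and 9.02 on day 9. HLA-DPA1 had between 3.32 and 5.81 FPKM over the libraries, and CD74 between 0.681 and 2.12. HLA-DRB1, HLA-DQA1 and HLA-DQB1 were listed at 0 in every library. HLA-DRA had at most 0.126 FPKM, and CIITA, the master coactivator of class II genes, had at most 0.726. HLA-DMB, also chosen after its values were seen, had at most 0.639 FPKM. HLA-DRA, HLA-DRB1, HLA-DQA1, HLA-DQB1 and CIITA were not set down in advance to be named either. HLA-DMA, which loads peptides into class II molecules, was past the limit on all 3 days, with 2.45 FPKM on day 0 and 7.70, 6.71 and 8.23 later. It was the 1 of the 4 called higher on each later day, against 8.13%, 9.01% and 9.6% of all expressed symbols, and 0 were lower.

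Of 21 transcription factors and coactivators of class I genes, 20 were expressed, and 10 of these were below and 8 above day 0 on all 3 later days as deposited, near the 46% and 36.1% of all expressed symbols. NLRC5, the main coactivator of class I genes, had 10.4 FPKM on day 0 and 5.90, 5.42 and 4.95 later, with log2 ratios of -0.73, -0.83 and -0.94. IRF1, an activator that binds the interferon-stimulated response element, had 26.4 FPKM on day 0 and 46.5, 62.1 and 72.9 later and was past the limit on days 6 and 9. At least 2-fold higher on days 3, 6 and 9 were 0, 3 and 4 of the 20, against 8.13%, 9.01% and 9.6% of all expressed symbols. At least 2-fold lower were 1, 1 and 2, against 5.3%, 6.42% and 6.52%. The calls other than IRF1 were of genes chosen after their values were seen. RFXANK, a subunit of the RFX complex that binds class I promoters, was lower on days 3 and 6, with 33.1 FPKM on day 0 and 15.4 and 16.0 on those days. NFKB2 and RELB, partners in the noncanonical NF-kB pathway, were higher on days 6 and 9, RELB with 6.45 FPKM on day 0, 22.0 on day 6 and 25.9 on day 9. IRF2 was higher on day 9 only, while IRF7 and IRF9, which act in the type I interferon response, were lower on day 9 with log2 ratios of -1.16 and -1.09.

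**Figure D5:**
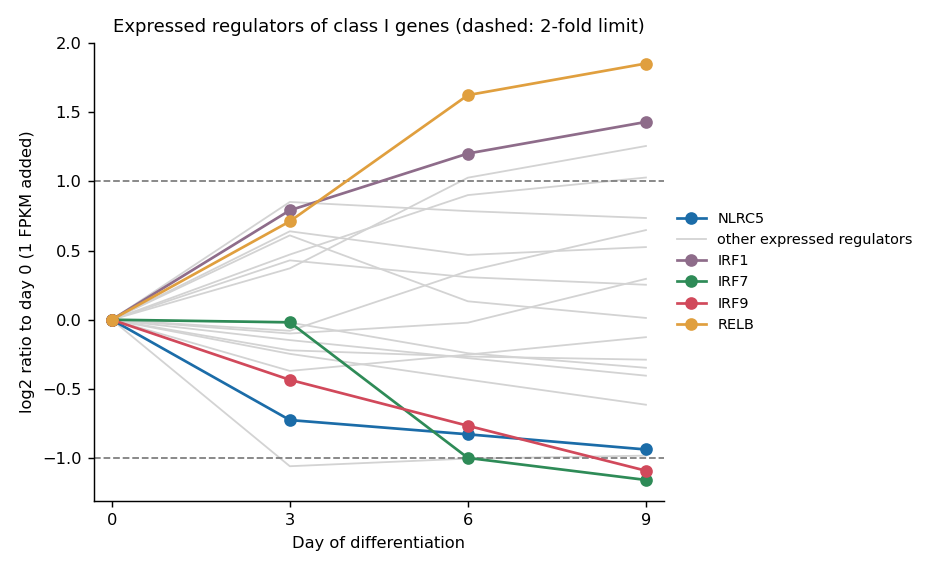
log2 ratio to day 0 (y axis) of expressed regulators of class I genes against the day of differentiation (x axis), from 1 library per day, with 5 named in color and the others in grey. Dashed lines mark the 2-fold limit. IRF1 and RELB end above the upper line, IRF7 and IRF9 end below the lower line, and NLRC5 stays between them.

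Interferon messages were at or near 0. IFNG was listed at 0 in every library, and IFNB1, IFNL1 and IFNK had at most 0.125 FPKM. Of 18 genes of cytokine signalling upstream of class I genes, 12 were expressed. At least 2-fold higher were 2 on day 3 and 1 each on days 6 and 9, with 0 lower. Among all expressed symbols 8.13%, 9.01% and 9.6% were higher and 5.3%, 6.42% and 6.52% lower. The counts of higher genes on days 6 and 9, and the 0 lower, were near these shares. IL1B, which encodes an inflammatory cytokine, was higher on all 3 days, with 5.41 FPKM on day 0 and 43.9, 127 and 280 later. LTB, chosen after its values were seen, was higher on day 3 alone, with 1.21 FPKM against 0.0607 on day 0. The receptor chains IFNAR1, IFNAR2, IFNGR1 and IFNGR2 stayed within the 2-fold limit, with log2 ratios between -0.13 and 0.54. These receptor genes and the interferon genes above were not set down in advance to be named.

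The genes most like the 9 were sought among 10443 other symbols with at least 5 FPKM in any library, by the distance of their 3 log2 ratios from the medians of the 9, over 4 libraries. The nearest were RBM12, RCOR1, BUD13, PPP4R3B and C18orf25, at distances between 0.0295 and 0.0392. B2M was at the median of the 9 on all 3 days and so has a distance of 0, HLA-E followed at 0.155 and PSMB8 and HLA-B at 0.203 and 0.204, and TAPBP was the farthest of the 9 at 1.46. The likeness is a description over 4 libraries that share 1 reference day.

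PSMB8-AS1, a lncRNA gene whose RefSeq locus overlaps PSMB8 and TAP1, was the lncRNA gene of the deposited lncRNA table found within 50 kb of any of the 9, and was looked at after the values of the 9 were seen. Its 2 transcripts summed to 10.4 FPKM on day 0 and to 3.91, 2.63 and 2.83 on days 3, 6 and 9. It was at least 2-fold lower on each later day (log2 ratios -1.21, -1.65 and -1.57). The share of all lncRNA genes that were lower was not counted. Beside it, ENST00000374881 of PSMB8 had -1.96, -2.50 and -2.17, and the main transcript ENST00000374882 had -0.33, -0.42 and -0.36. The library kit keeps the strand, but whether the FPKM were estimated by strand is not given in the sources used here, so reads of overlapping genes may not have been told apart.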

How the data were processed

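Total RNA of 4 hFOB1.19 cultures (days 0, 3, 6 and 9) was depleted of ribosomal RNA and made into directional libraries. The labels describe an RNase R treatment for the mRNA libraries, an enzyme that digests linear RNA. The authors aligned the reads with TopHat on a Bowtie index. The submitters' processing notes name Bowtie 0.12.2 and the mouse build mm8, which does not match human cells. The program behind the FPKM and the build are not given in the sources used here. The authors deposited FPKM per transcript for mRNAs (79798 transcripts) and lncRNAs, 1 column per library, matched by the day in the sample titles. Their comparison tables hold fold changes, p-values and 18 columns of values per sample, and were not used. The circRNA counts were not used either.

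FPKM were summed per symbol (17 of 19610 symbols cover more than 1 gene ID, none of them among the 9 genes). log2 ratios were taken after adding 1, for symbols with at least 1 FPKM in any library, with a 2-fold limit. With 1 library per time point no test exists, and scripts were tested on simulated data only to see that known changes are recovered. The 9 genes and the gene lists were chosen with earlier results of these data known. Genes of the other lists, cell type markers aside, were named when past the limit on all 3 later days or when set down in advance (HLA-F, HLA-G, NLRC5, IRF1, PSMB10, PSME1, PSME2, ERAP1, ERAP2, PSMB5, PSMB6 and PSMB7). Other named genes are marked. Some genes of these lists are counted but not reported here by name. Promoter windows came from RefSeq (GRCh38.p14). Alternatives covered the pseudocount, the minimum, the limit, the highest transcript of each symbol, 1 gene ID per symbol, and FPKM rescaled to the same sum or by the median of ratios. Python 3.11.15, numpy 2.4.6, pandas 2.3.3 and matplotlib 3.10.9 were used.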

Additional observations from a re-analysis of the deposited data

How the results depend on the processing

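No paired analysis was possible because only 1 library stands for each day, and for that reason no library could be left out. The deposited FPKM sum to 617857 on day 0 and to between 538072 and 569922 later. Rescaling to the same sum shifted the median log2 ratio of all expressed symbols by 0.18, 0.16 and 0.11 on days 3, 6 and 9, to 0.10, 0.079 and 0.018, and rescaling by the median of ratios shifted it by 0.12, 0.12 and 0.11, to 0.037, 0.036 and 0.025. Less the median of all symbols, the median of the 9 genes was -0.26, -0.49 and -0.43 as deposited and -0.25, -0.47 and -0.42 with the same sum. Genes near day 0 changed sign by construction. TAP1 on day 3 was at 0.15 with the same sum and 0.080 with the median of ratios. PSMB9 was at 0.037 on day 3 with the same sum, and at 0.054 and 0.062 on day 9 with the same sum and the median of ratios. From day 6 to day 9, the median of the 9 was -0.011 with the same sum, and that of all symbols -0.044. From day 3 to day 6, the median of all symbols was 0.00015 with the median of ratios and 0.00059 with a minimum of 5 FPKM.

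With the highest transcript of each symbol only, TAP2 had -1.01 on day 3 and -0.98 on day 9. At least 2-fold lower were then 1 of 9 genes on day 3 and 0 on day 9, against 6.08% and 7.23% of all expressed symbols. The log2 change of the PSMB10 to PSMB7 ratio on day 9 was 1.001 with this alternative, against 0.98. For that ratio the alternative was chosen after the data were seen. With a 1.5-fold limit, 1, 4 and 3 of the 9 were lower on days 3, 6 and 9, and with a 4-fold limit 0 on day 9. The shares of all expressed symbols at these other limits were not counted, so these counts cannot be set against them. A pseudocount of 0.1 and 1 gene ID per symbol moved no value of the 9 genes across the limit or across 0. The scaling of the proteasome medians and the transcript choice for ratios between genes were also added after the data were seen. The depth behind an FPKM is unknown, which limits values near 0 most.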
